A study of Homo sapiens with 12 samples.

Results

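The Janus kinase genes JAK1, JAK2, JAK3 and TYK2 and the STAT factor genes STAT2, STAT3, STAT5A, STAT5B and STAT6 were followed in human tubular cells given TNF-α with or without a short-chain fatty acid (SCFA). Members were the genes with these symbols, and all 9 were found among the 58278 genes of the count tables and passed the filter on low counts, which kept 24342 genes. Propionate and butyrate, given before or after TNF-α, came with less RNA of JAK1, JAK3, STAT5A, STAT5B and STAT6 and more RNA of JAK2 and STAT3 than TNF-α alone. STAT2 and TYK2 moved by less than 1.5-fold in every one of these comparisons.

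Janus kinases are tyrosine kinases that sit on the inner part of cytokine receptors. When a cytokine joins its receptor chains, the kinases phosphorylate the receptor and then the STAT factors that dock there, and paired STAT factors enter the nucleus and bind DNA. In tubular epithelium the pathway is known to carry signals of interferons, the interleukin 6 family and growth hormone. Kinases and STAT factors are switched by phosphorylation, which RNA levels do not show.

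All libraries come from a single line, HK2, made of immortalized epithelium of the human proximal tubule. Ctrl cells received nothing, and TN cells received TNF-α at 5 ng/mL for 3 h. PRTN and BUTN cells had propionate at 15 mM or butyrate at 3 mM for 24 h and then the same TNF-α, while TNPR and TNBU cells had the TNF-α first and the SCFA afterwards. Each of the 6 groups held 2 libraries of polyadenylated RNA, described as biological replicates. All SCFA groups also carried TNF-α, so an SCFA without TNF-α was not analysed here, and neither were cells kept for a day after TNF-α without an SCFA. TNPR and TNBU therefore differ from PRTN and BUTN in the order of treatments and in the time between TNF-α and collection, and these cannot be told apart. From TN they differ in the SCFA and in that time, which likewise cannot be told apart. The general treatment text of the labels names thapsigargin and JQ1, but the label of each library names TNF-α and the SCFA, which was used. In bulk RNA, fewer cells with a transcript and less transcript per cell cannot be told apart.

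Libraries held 27269986 to 33851130 expected counts, so that 3 counts stood at 0.0867 to 0.112 CPM (counts scaled to equal library sizes with TMM factors). Replicates of TNPR and TNBU differed most, with a chi-square statistic per gene of 15.1 and 18.1 against 3.17 to 6.61 in the other groups. Of 18 proximal tubule genes, 10 were over 1 CPM in every library, while LRP2 and HNF4A, defining genes of that cell type, were at 0 in Ctrl and TN and at most 0.991 CPM in the SCFA groups. The list summed to 4484 to 4913 CPM in Ctrl and TN, 4099 to 4146 for PRTN, 4658 to 4805 for BUTN, 3495 to 3722 for TNPR and 3980 to 4217 for TNBU. Of 10 lymphocyte genes, 1 was over 1 CPM in every library, and their summed level was 1.19 to 1.40 CPM in Ctrl and TN and 4.71 to 8.61 CPM in the SCFA groups, mostly from LCK, with MS4A1 at 0 in every library. The 9 myeloid genes summed to 1.22 to 1.61 CPM and then 3.76 to 8.11 CPM, and the 4 endothelial genes to 0.143 to 0.287 CPM and then 2.21 to 3.64 CPM, with no gene of either list over 1 CPM in every library. These sums moved with the SCFA groups, and their part in the results below was not tested.

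TNF-α alone called 0 of the 9 members, which in limma-voom took an adjusted p under 0.05 and a change of more than 1.5-fold, where 0.764% of all tested genes were called higher and 0.534% lower. At an unadjusted p under 0.05 there were 3 members, and edgeR and DESeq2 also called 0. STAT2, the partner of IRF9 in the interferon-stimulated complex, was at 74.6 ± 2.31 CPM (SD, n = 2) without treatment and at 55.8 ± 0.703 CPM with TNF-α. This log2 difference of -0.42 (standard error 0.07, adjusted p = 0.00788 by limma-voom) stayed under 1.5-fold. STAT5A differed by 0.35 on that scale (standard error 0.08, adjusted p = 0.0424 by limma-voom), also under that fold. For JAK1 the value was 0.24 (standard error 0.07, adjusted p = 0.0919 by limma-voom), and the other 6 members lay between -0.06 and 0.09.

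Against TN, 5 of the 9 members were lower and 2 higher in every SCFA group (PRTN, BUTN, TNPR, TNBU). Of all tested genes, 16.7% were lower and 23.9% higher in PRTN, 14.8% and 23.1% for BUTN, 16.9% and 24.9% for TNPR, and 16.5% and 25% for TNBU. The median log2 fold change of the members was -0.995, -0.74, -1.10 and -0.89 in these groups, where the median of all tested genes was 0.09, 0.08, 0.12 and 0.09. Across the series, 11.9% of tested genes were lower and 18.4% higher in all 4 groups. The study lists JAK1, JAK3, STAT5A and STAT6 in a JAK-STAT term drawn from genes lowered in these same libraries, and their fall is thus no independent evidence. The 4 comparisons share the TN libraries. For several members below, all SCFA libraries are said to lie apart from those of Ctrl and TN. The share of all tested genes that separate in this way was not counted, so these statements have no background.

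**Figure D1:**
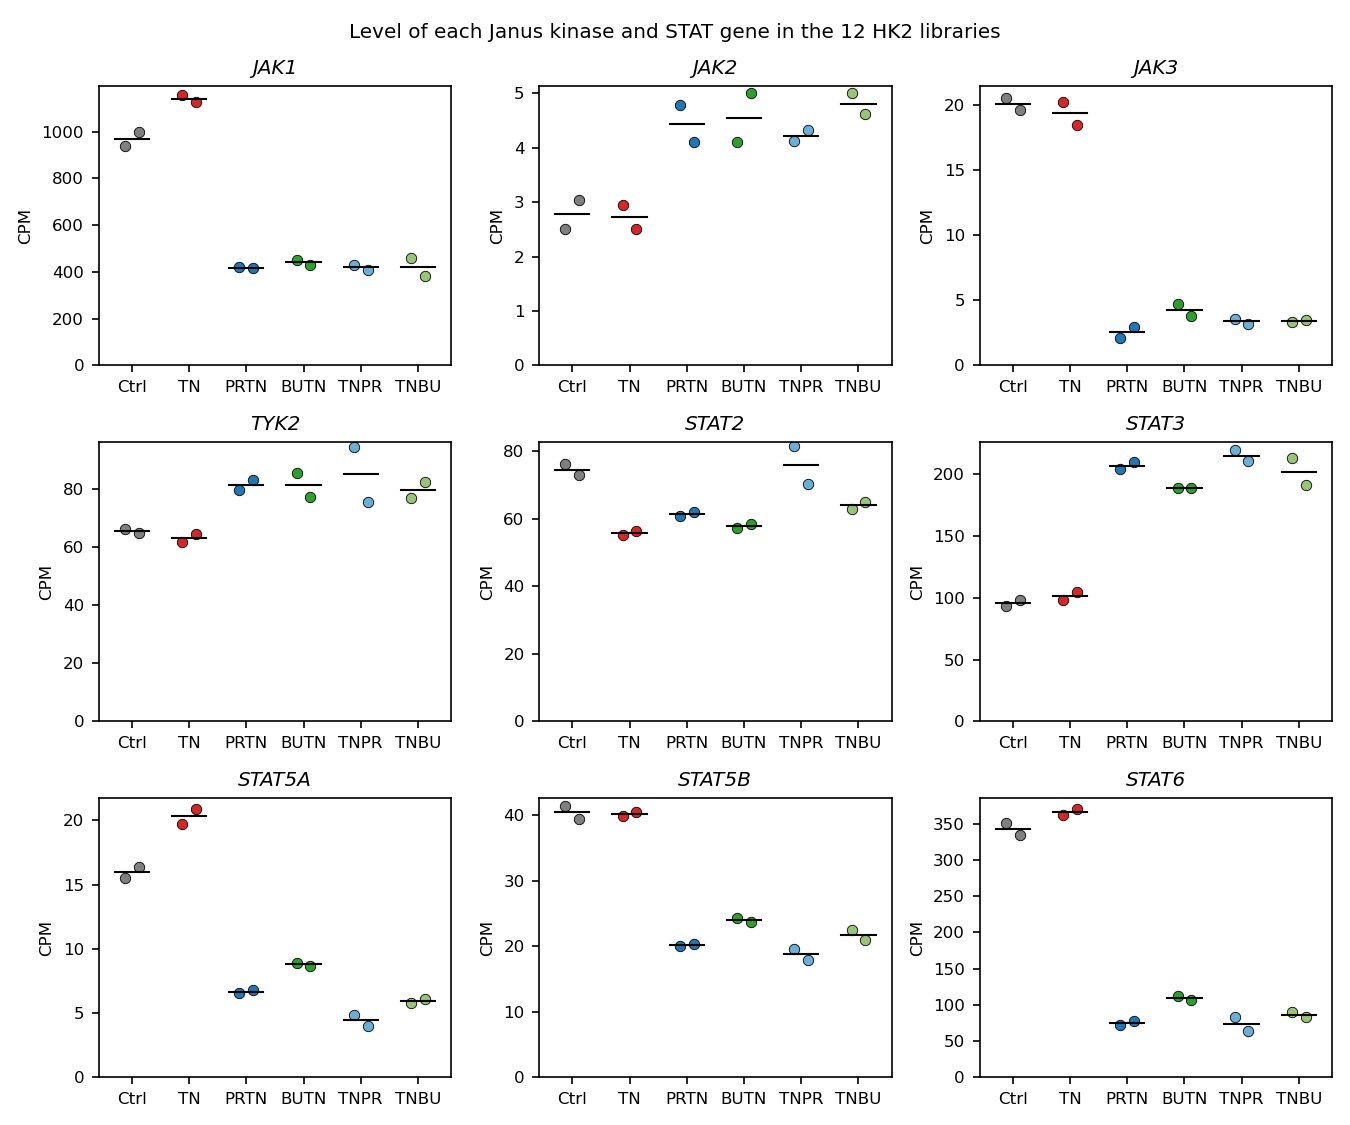
Level of each member in CPM (linear axes from 0, a separate scale for each gene) in the 12 libraries, as points by group, with the mean of 2 replicates as a line. In JAK1, JAK3, STAT5A, STAT5B and STAT6 all 8 SCFA libraries lie below the 4 Ctrl and TN libraries, and in JAK2, STAT3 and TYK2 they lie above them. The share of all tested genes that separate in this way was not counted.

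Among the kinases, JAK1 serves the receptors of interferons, of the interleukin 6 family and of many other cytokines. The gene (ENSG00000162434, GRCh38 chr1:64833223-65067754, minus strand) had 939 and 998 CPM in Ctrl, 1157 and 1127 for TN, 419 and 418 for PRTN, 449 and 432 for BUTN, 431 and 408 for TNPR, and 460.0 and 381 for TNBU. All SCFA libraries were below all others, without overlap. The log2 fold change against TN was -1.45 for PRTN, -1.37 for BUTN, -1.45 for TNPR and -1.45 for TNBU (standard error 0.07 in each), with adjusted p-values of 8.49e-09, 1.65e-08, 7.83e-09 and 9.76e-09 by limma-voom. The fall was 2.59-fold to 2.73-fold, and the 4 SCFA groups lay between 419 and 441 CPM on average.

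JAK3 is known as the kinase that pairs with the common gamma chain of interleukin receptors in lymphocytes. It had the largest fall of the members in 4 of 4 comparisons with TN. The gene (ENSG00000105639, GRCh38 chr19:17824780-17848071, minus strand) had 20.5 and 19.6 CPM in Ctrl, 20.3 and 18.5 for TN, 2.14 and 2.98 for PRTN, 4.72 and 3.79 for BUTN, 3.55 and 3.20 for TNPR, and 3.33 and 3.45 for TNBU. The low libraries rest on 74 to 151 counts, against 515 to 598 in Ctrl and TN. Log2 fold changes against TN were -2.93 (standard error 0.16, adjusted p = 1.66e-08) for PRTN, -2.19 (standard error 0.14, adjusted p = 6.23e-08) for BUTN, -2.51 (standard error 0.15, adjusted p = 2.83e-08) for TNPR and -2.51 (standard error 0.15, adjusted p = 4.42e-08) for TNBU by limma-voom. A lower log2 fold change than that of JAK3 was found for 0.945% of tested genes in PRTN and 2.04% for BUTN.

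The kinases JAK2 and TYK2 took the other direction. JAK2, which serves the receptors of erythropoietin, growth hormone and interferon gamma, is a low gene in these cells (ENSG00000096968, GRCh38 chr9:4984390-5129948, plus strand). Its level was 2.51 and 3.05 CPM in Ctrl, 2.94 and 2.51 for TN, 4.78 and 4.11 for PRTN, 4.10 and 5.00 for BUTN, 4.12 and 4.32 for TNPR, and 5.01 and 4.61 for TNBU, from 70 to 173 counts. Every SCFA library was above every Ctrl and TN library. The rise against TN was 0.70 for PRTN (adjusted p = 0.00447), 0.74 for BUTN (adjusted p = 0.00342), 0.63 for TNPR (adjusted p = 0.0093) and 0.82 for TNBU (adjusted p = 0.0017) on the log2 scale by limma-voom, with a standard error of 0.18 in each. Without TN replicate 2 the values were 0.56 for PRTN (adjusted p = 0.0608 by limma-voom) and 0.48 for TNPR (adjusted p = 0.102 by limma-voom), and without TNBU replicate 1 the value in TNPR was 0.58, under 1.5-fold.

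TYK2 acts at the receptors of type I interferons and of interleukin 12 (ENSG00000105397, GRCh38 chr19:10350533-10380608, minus strand). It had 66.2 and 65.1 CPM in Ctrl, 62.0 and 64.4 for TN, 79.9 and 83.2 for PRTN, 85.5 and 77.2 for BUTN, 94.7 and 75.6 for TNPR, and 77.1 and 82.7 for TNBU. Every SCFA library was above every Ctrl and TN library, while the SCFA groups overlapped each other. The share of all tested genes that separate in this way was not counted. A log2 fold change against TN lower than that of TYK2 was found for 58.6% (TNBU) to 60.5% (BUTN) of tested genes. The log2 fold change against TN was 0.37, 0.36, 0.42 and 0.34 (standard error 0.10 in each, adjusted p from 0.00213 to 0.00939 by limma-voom), under 1.5-fold in each. With library size as the sole scaling, which moved the median of all genes by 0.15 to 0.20 in these comparisons, TYK2 reached 0.60 for TNPR and was called.

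**Figure D2:**
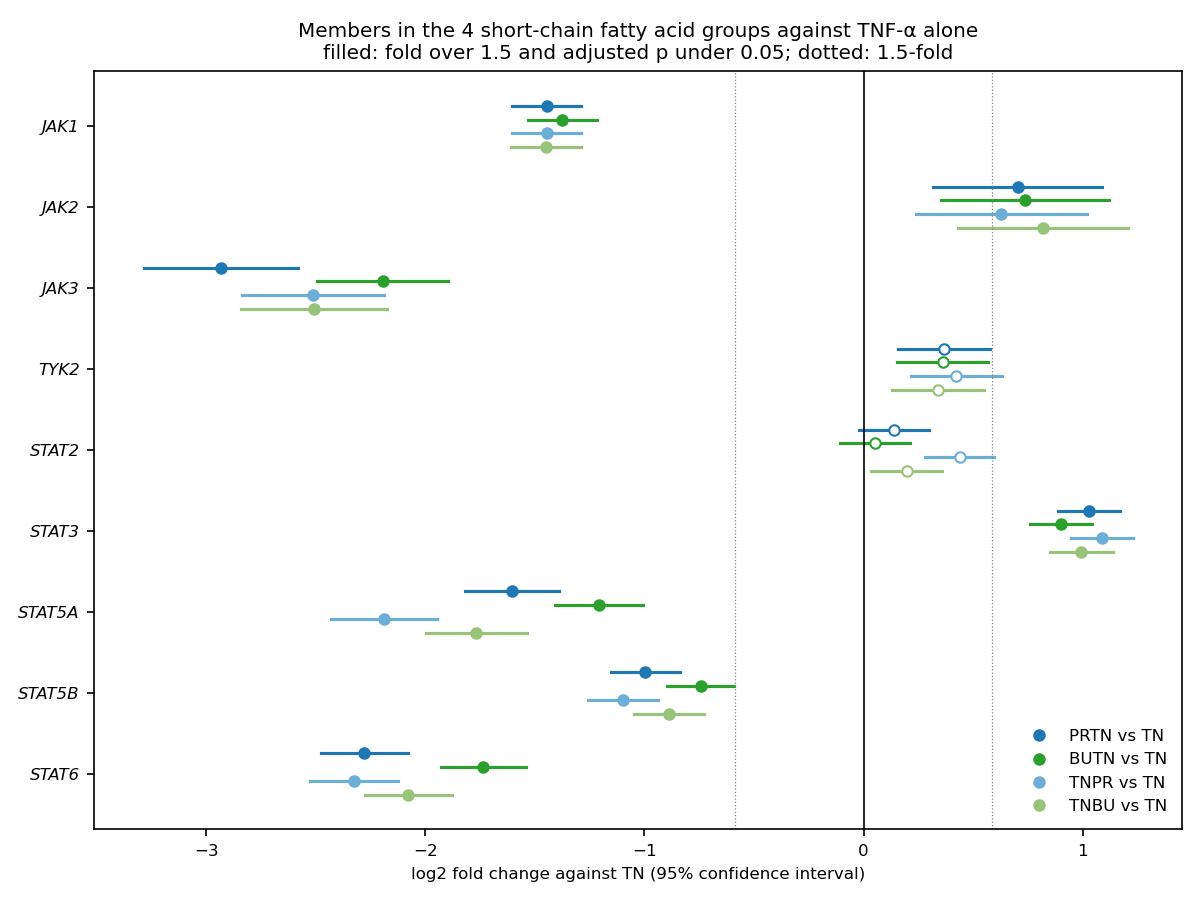
Log2 fold change of each member in the 4 SCFA groups against TN (horizontal axis) with 95% confidence intervals from limma-voom, filled where the gene was called and open where it was not. JAK3 spans -2.93 to -2.19 and STAT6 -2.33 to -1.74 on the left, STAT3 spans 0.90 to 1.09 on the right, and the open points are those of TYK2 and STAT2.

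Among the STAT factors, STAT6, which carries the signals of interleukin 4 and interleukin 13, had the largest fall against TN in all 4 SCFA groups. The gene (ENSG00000166888, GRCh38 chr12:57095408-57132139, minus strand) had 351 and 335 CPM in Ctrl, 362 and 370.2 for TN, 73.0 and 77.9 for PRTN, 112 and 107 for BUTN, 82.8 and 64.1 for TNPR, and 89.9 and 83.6 for TNBU. Its SCFA libraries lay far below the others, without overlap. Against TN the log2 fold change was -2.28 for PRTN, -1.74 for BUTN, -2.33 for TNPR and -2.08 for TNBU (standard error 0.09 in each), with adjusted p-values of 1.6e-09, 1.34e-08, 1.3e-09 and 3.46e-09 by limma-voom. These are falls of 4.85-fold, 3.33-fold, 5.02-fold and 4.22-fold. STAT6 shares 69 exon bases with NAB2 and 59 with LRP1, both on the other strand, and its expected counts were not whole in all 12 libraries. LRP1, an endocytic receptor, had log2 fold changes against TN from 1.23 to 1.54, the direction opposite to STAT6, and NAB2, a corepressor of early growth response factors, from -0.73 to -0.37.

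STAT3, the factor downstream of the interleukin 6 family, moved the opposite way (ENSG00000168610, GRCh38 chr17:42313324-42388540, minus strand). It had 93.7 and 98.1 CPM in Ctrl, 98.3 and 104 for TN, 204 and 209.5 for PRTN, 189 and 189 for BUTN, 219.7 and 210.3 for TNPR, and 213 and 191 for TNBU. All 8 SCFA libraries were above the 4 others. The log2 fold change against TN was 1.03 for PRTN (standard error 0.06, adjusted p = 5.3e-08), 0.90 for BUTN (standard error 0.07, adjusted p = 2.17e-07), 1.09 for TNPR (standard error 0.06, adjusted p = 3.15e-08) and 0.99 for TNBU (standard error 0.07, adjusted p = 8.22e-08) by limma-voom. The rise was 1.87-fold to 2.12-fold, and 74.1% to 76.0% of tested genes had a lower log2 fold change than STAT3.

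STAT5A and STAT5B are close copies that carry the signals of growth hormone, prolactin and interleukin 2, and they share reads. Their genes lie head to head on chromosome 17 with 1087 bases in common, 415 of them exonic, on opposite strands, and STAT5A ends 1380 bases before STAT3 (STAT5A: ENSG00000126561, GRCh38 chr17:42287547-42311943, plus strand. STAT5B: ENSG00000173757, GRCh38 chr17:42199176-42288633, minus strand). Windows of 50 bases found in both canonical transcripts made up 13.6% of those of STAT5A and 10.1% of those of STAT5B. The longest identical run in the coding sequences was 429 bases, across exons 6 to 9. The part in exon 7 is shown because a read inside it cannot be assigned to either gene. It is the same 152 bases at GRCh38 chr17:42300130-42300281 (plus strand, STAT5A) and chr17:42219312-42219463 (minus strand, STAT5B), read 5′ to 3′ along each transcript from the reference genome.
STAT5A and STAT5B exon 7: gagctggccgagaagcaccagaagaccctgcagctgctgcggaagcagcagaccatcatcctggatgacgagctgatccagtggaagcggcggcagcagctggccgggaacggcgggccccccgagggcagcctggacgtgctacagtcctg

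STAT5A had 15.5 and 16.4 CPM in Ctrl, 19.7 and 20.9 for TN, 6.57 and 6.79 for PRTN, 8.89 and 8.70 for BUTN, 4.86 and 4.03 for TNPR, and 5.83 and 6.08 for TNBU. Its groups were in the order TN, Ctrl, BUTN, PRTN, TNBU and TNPR with no overlap between neighbours. Log2 fold changes against TN were -1.60 (standard error 0.10), -1.21 (standard error 0.09), -2.19 (standard error 0.11) and -1.77 (standard error 0.11) for PRTN, BUTN, TNPR and TNBU, with adjusted p-values of 4.15e-08, 3.29e-07, 8.75e-09 and 3.77e-08 by limma-voom.

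STAT5B had 41.4 and 39.4 CPM in Ctrl, 39.8 and 40.5 for TN, 19.97 and 20.3 for PRTN, 24.3 and 23.6 for BUTN, 19.6 and 17.9 for TNPR, and 22.5 and 20.9 for TNBU. All SCFA libraries were below all Ctrl and TN libraries. The log2 fold change against TN was -0.995, -0.74, -1.10 and -0.89 (standard error 0.07 in each), with adjusted p-values of 1.79e-07, 2.18e-06, 8.61e-08 and 5.38e-07 by limma-voom. Since reads can be split wrongly between the copies, their counts were also added. The sum had 56.4 ± 0.835 CPM in Ctrl, 60.4 ± 1.28 for TN, 26.8 ± 0.371 for PRTN, 32.8 ± 0.607 for BUTN, 23.2 ± 1.74 for TNPR and 27.6 ± 0.936 for TNBU (SD, n = 2 in each). Its log2 fold change against TN was -1.17, -0.88, -1.38 and -1.13 (standard error 0.07 in each), called lower in all 4 groups.

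STAT2 (ENSG00000170581, GRCh38 chr12:56341597-56360203, minus strand) had 76.2 and 72.9 CPM in Ctrl, 55.3 and 56.3 for TN, 60.9 and 62.0 for PRTN, 57.4 and 58.5 for BUTN, 81.4 and 70.3 for TNPR, and 63.0 and 65.0 for TNBU. TN was its lowest group. The log2 fold change against TN was 0.14 for PRTN (95% confidence interval -0.02 to 0.30) and 0.05 for BUTN (-0.11 to 0.21). In TNPR it was 0.44 (standard error 0.07, adjusted p = 0.000203 by limma-voom) and in TNBU 0.20 (standard error 0.07, adjusted p = 0.0378 by limma-voom), both under 1.5-fold. In these 2 comparisons the SCFA and the longer time after TNF-α cannot be told apart. With library size as the sole scaling STAT2 reached 0.61 for TNPR and was called.

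Against untreated cells the calls were the same, with 5 members lower and 2 higher in each SCFA group, and these comparisons share the Ctrl libraries. Of all tested genes, 16.9% were lower and 22.6% higher than Ctrl in PRTN, 14.9% and 22% for BUTN, 16.8% and 23.6% for TNPR, and 16.5% and 23.6% for TNBU. STAT6 had log2 fold changes against Ctrl of -2.19, -1.64, -2.23 and -1.98, JAK3 of -2.99, -2.25, -2.57 and -2.56, and STAT3 of 1.11, 0.98, 1.16 and 1.07. For STAT5A, which stood higher in TN than in Ctrl, the values against Ctrl were -1.25, -0.86, -1.84 and -1.42. STAT2 had -0.28, -0.36, 0.02 and -0.22, so that only its TNPR libraries overlapped those of Ctrl.

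Levels of different members were compared as CPM per kb of merged exons. In Ctrl and TN the order was led by JAK1, at 73.5 ± 3.16 and 86.7 ± 1.60 CPM per kb, and STAT6, at 47.0 ± 1.55 and 50.1 ± 0.841 CPM per kb (SD, n = 2 in each). JAK2 was lowest, at 0.351 ± 0.0484 and 0.345 ± 0.0383 CPM per kb. In all 4 SCFA groups STAT3 took the place after JAK1, with 16.9 to 19.2 CPM per kb on average, STAT6 came next with 10.1 to 15.1 CPM per kb, and JAK3 was lowest with 0.306 to 0.508 CPM per kb. STAT6 exceeded STAT3 within each library by a ratio of 5.50 ± 0.358 in Ctrl and 5.55 ± 0.142 for TN, and this ratio was 0.560 ± 0.0153 for PRTN, 0.893 ± 0.0292 for BUTN, 0.523 ± 0.0786 for TNPR and 0.660 ± 0.0176 for TNBU (SD, n = 2 in each). With the length of the canonical transcript the ratio was 4.45 and 4.49 in Ctrl and TN and 0.423 to 0.722 in the SCFA groups, on the same side of 1. Other places turned with that length. JAK2 was then lowest in BUTN (0.648 CPM per kb, with JAK3 at 0.790) and in TNPR (0.600, with JAK3 at 0.627), and TYK2 stood above STAT6 in PRTN (19.2 and 19.0) and in TNPR (20.1 and 18.5). By merged exons, neighbours with overlapping libraries were STAT5A and JAK3 in Ctrl, JAK2 and JAK3 for BUTN, and STAT6 and TYK2 for TNPR.

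**Figure D3:**
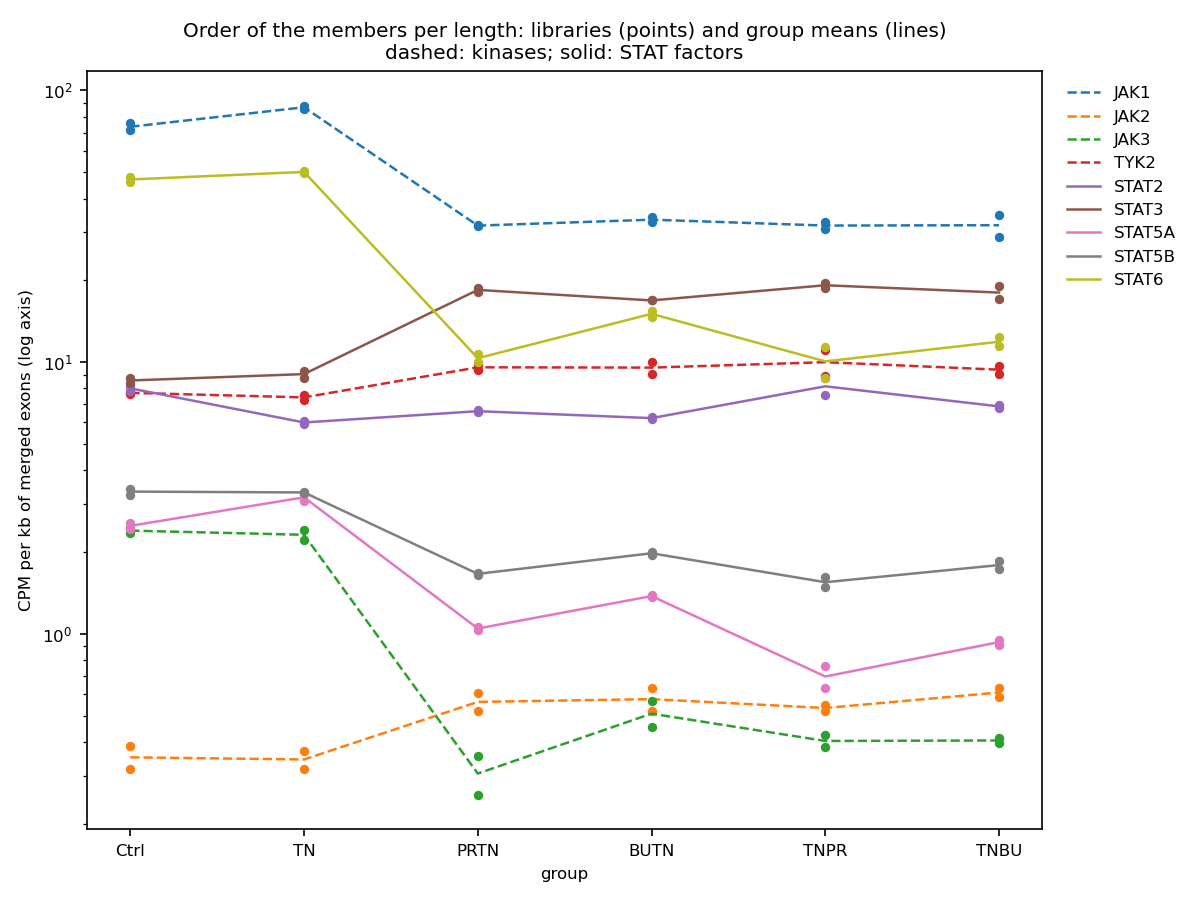
CPM per kb of merged exons (log axis) of the 9 members in the 6 groups, with libraries as points, group means joined by lines, kinases dashed and STAT factors solid. STAT6 lies above STAT3 in Ctrl and TN and below it in the 4 SCFA groups, and JAK3 drops from above 2 CPM per kb to at most 0.508 CPM per kb on average.

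As a description of both families, levels were also added. Summed over the 4 kinases, the level was 84.0 ± 3.03 CPM per kb in Ctrl and 96.8 ± 1.58 for TN, and 42.2 to 44.1 CPM per kb on average in the SCFA groups. JAK1 made up 87.5% of this sum in Ctrl and 89.6% for TN, and 74.5% to 75.9% in the SCFA groups. TYK2 made up 9.19% and 7.67% and then 21.6% to 23.3%. Of the 5 STAT factors together, 69.4 ± 1.54 CPM per kb in Ctrl, 71.7 ± 1.47 for TN and 38.1 to 41.5 in the SCFA groups, STAT6 held 67.7% in Ctrl, 70.0% for TN and 25.3% to 36.3% in the SCFA groups. STAT3 held 12.3% and 12.6% and then 40.6% to 48.5%. With the length of the canonical transcript JAK1 held 90.6% and 92.2% and then 79.5% to 80.8%, and TYK2 7.39% and 6.13% and then 17.9% to 19.3%. STAT6 then held 64.0% and 66.5% and then 21.9% to 32.1%, and STAT3 14.4% and 14.8% and then 44.5% to 52.0%. Shares within a family are bound to each other, and the sums rest mainly on JAK1 and on STAT6 and STAT3.

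No member passed both thresholds between propionate and butyrate by limma-voom, and their doses were not matched (15 and 3 mM). In PRTN vs BUTN limma-voom called 0 members (0.168% of all tested genes), 4 had an unadjusted p under 0.05, edgeR called 0 and DESeq2 called 1, JAK3. STAT6 was lower with propionate by a log2 difference of -0.54 (standard error 0.10, adjusted p = 0.0334 by limma-voom), that is 1.46-fold, from 75.5 ± 3.52 CPM in PRTN and 109.9 ± 3.52 CPM in BUTN. For JAK3 the difference was -0.74 (standard error 0.19, adjusted p = 0.0976 by limma-voom) and for STAT5A -0.40 (standard error 0.11, adjusted p = 0.121 by limma-voom). JAK1 had -0.07 (95% confidence interval -0.24 to 0.09), STAT3 0.13 (-0.01 to 0.26) and JAK2 -0.03 (-0.36 to 0.29). In TNPR vs TNBU limma-voom called 0 members (0.00822% of all tested genes), 4 had an unadjusted p under 0.05, and edgeR and DESeq2 called 0. The STAT6 difference there was -0.25 (95% confidence interval -0.46 to -0.03, adjusted p = 0.517 by limma-voom).

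Nor did any member pass both thresholds between an SCFA given after TNF-α and the same SCFA given before it. In TNPR vs PRTN limma-voom called 0 members (0.16% of all tested genes) and 2 had an unadjusted p under 0.05. In TNBU vs BUTN it called 0 (0.267% of all tested genes) and 2 had an unadjusted p under 0.05. edgeR and DESeq2 called 0 in both. STAT5A was lower when the SCFA came after TNF-α, by -0.56 for butyrate (standard error 0.11, adjusted p = 0.0477 by limma-voom), under 1.5-fold, and by -0.59 for propionate (standard error 0.12, adjusted p = 0.108 by limma-voom). Without TNBU replicate 1 the propionate difference was -0.60 and was called (adjusted p = 0.0479 by limma-voom). JAK1 differed by 0.00 for propionate (95% confidence interval -0.16 to 0.16) and by -0.07 for butyrate (-0.24 to 0.09). The difference of the timing effects between both SCFAs was called for 0 members and for 0% of all tested genes, with 1 member at an unadjusted p under 0.05 and 0 members called by edgeR and by DESeq2.

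Beyond the members, 87 genes of the pathway were listed by role, and 82 were tested. TN vs Ctrl called 10 of them higher and 1 lower, beside 0.764% and 0.534% of all tested genes. Against TN, 14 were higher and 31 lower in PRTN, 14 and 29 for BUTN, 14 and 33 for TNPR, and 14 and 35 for TNBU. Beside these, 23.9% of all tested genes were higher and 16.7% lower in PRTN, and 23.1% and 14.8% for BUTN. The shares were 24.9% and 16.9% for TNPR, and 25% and 16.5% for TNBU. The study reports CSF2, IL6, LIF and IL7R as lowered by both SCFAs in these same libraries. Their fall here is thus no independent evidence. For CSF2, IL6 and LIF the study also reports a fall by RT-PCR. Over the 82 genes the median log2 fold change was -0.27, -0.26, -0.43 and -0.36, against 0.09, 0.08, 0.12 and 0.09 over all genes. Of 29 receptor chains, 10 were lower (34.5%) and 8 higher (27.6%) in all 4 SCFA groups, beside 11.9% and 18.4% of all tested genes, the background for each list that follows. PRLR, the prolactin receptor, had 1.08 and 1.76 CPM in TN and 0.0332 to 0.375 CPM in the SCFA libraries. IL2RG, the common gamma chain with which JAK3 pairs, was at 0 in both TN libraries and at 0.105 to 0.250 CPM in the SCFA libraries, near the level of 3 counts. GHR, CSF2RB, CNTFR and IL10RA, also higher in all 4 groups, stood at 0.0725 to 0.183 CPM on average in TN. Chains this low in TN had little room for a fall. The share of such genes among all tested genes was not counted, so 27.6% and 18.4% cannot be compared directly.

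Of 10 cytokine ligands, 6 were lower and 1 was higher in all 4 groups. CSF2, the granulocyte and macrophage colony factor, had 119 and 118 CPM in TN, 2.52 and 1.89 for PRTN, 4.04 and 3.41 for BUTN, 3.79 and 0.672 for TNPR, and 1.33 and 0.896 for TNBU. IL12A, a subunit of interleukin 12, had 1.15 and 0.896 CPM in TN and 2.11 to 3.48 CPM in the SCFA libraries. Among 16 inhibitors, 3 were lower (18.8%) and 2 higher (12.5%) in all 4 groups, near the shares of all tested genes. SOCS2, a feedback inhibitor of growth hormone signals, had 3.87 and 3.44 CPM in TN and 0.991 to 1.68 CPM in the SCFA libraries, while SOCS7 had 17.6 and 17.2 CPM and then 29.7 to 35.3 CPM.

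Of 10 partners of STAT factors in the nucleus or at the receptor, 5 were lower and 0 higher in all 4 groups. NMI, which binds STAT factors, had 18.2 and 17.9 CPM in TN and 1.52 to 2.73 CPM in the SCFA libraries, and EP300, an acetyltransferase and coactivator, had 92.7 and 89.7 CPM and then 40.6 to 62.0 CPM. Of 17 genes known as STAT targets, 4 were lower (23.5%) and 2 higher (11.8%) in all 4 groups. GBP1, an interferon-inducible GTPase, had 39.2 and 36.2 CPM in TN and 1.94 to 3.09 CPM in the SCFA libraries. IFIT1, another interferon-inducible gene, had 3.09 and 2.73 CPM and then 7.20 to 11.6 CPM.

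**Figure D4:**
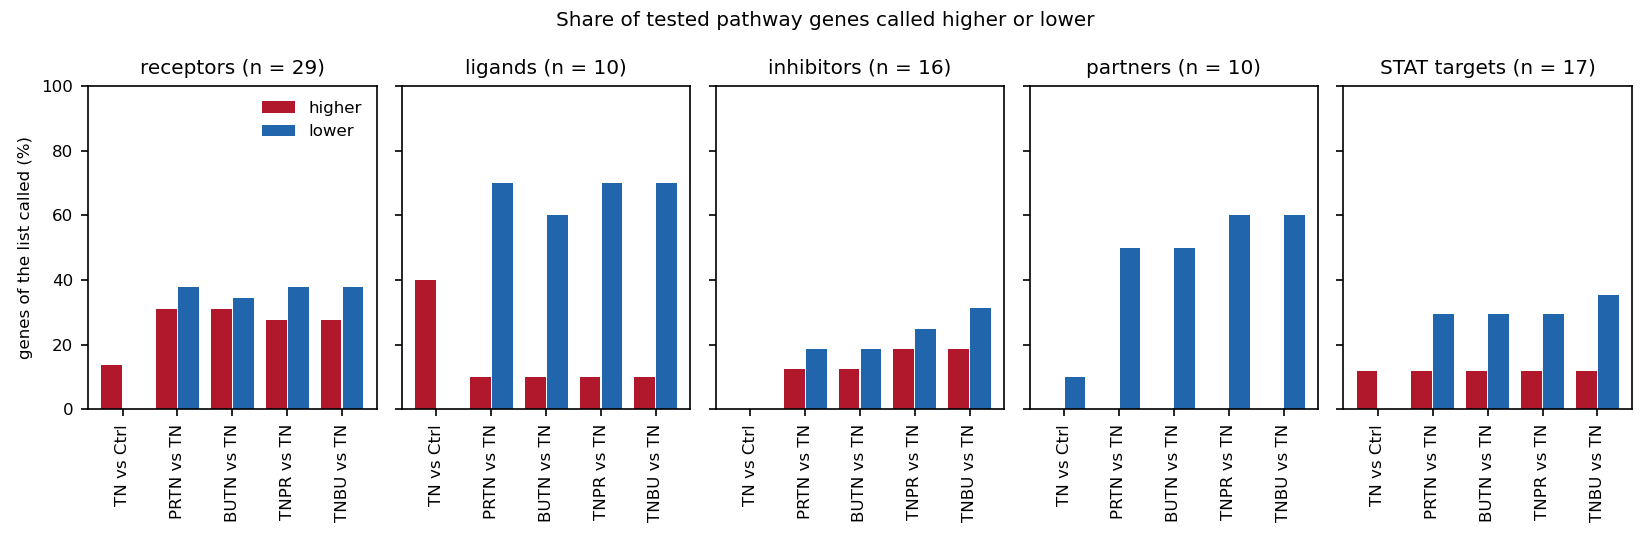
Share of the tested genes of 5 pathway lists (vertical axis, percent) called higher or lower by limma-voom in TN vs Ctrl and in the 4 SCFA groups against TN. Of 10 ligands, 4 were higher in TN vs Ctrl and 6 or 7 were lower in each SCFA group. Of all tested genes, 0.764% were higher in TN vs Ctrl and 14.8% to 16.9% lower in the SCFA groups.

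Over the means of the 6 groups, the genes most like JAK3 among 14984 genes with a mean of at least 1 CPM over the 12 libraries were HSBP1L1 (r = 0.9998), MUC1 (r = 0.9996) and RPP38 (r = 0.9994), and those most like STAT3 were VGLL3 (r = 0.9999), EN2 (r = 0.9997) and GFOD1 (r = 0.9997), on log2 levels. VGLL3 and EN2 lay under 1 CPM in every Ctrl and TN library and entered through the SCFA groups, where they are high. The correlations describe 6 points that come from the same libraries, and many genes that differ between the SCFA groups and the rest reach high values. MUC1, an epithelial mucin, went from 11.8 ± 0.459 CPM in TN to 3.43 ± 0.0150 CPM in PRTN. GFOD1 went from 5.02 ± 0.314 CPM in TN to 24.9 ± 0.899 CPM in PRTN (SD, n = 2 in each).

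The stretches before the start of JAK3 and of STAT3, the members with the lowest and the highest average change against TN, are shown without annotated exons, 5′ to 3′ on the strand of the gene, with each CG dinucleotide in capitals. JAK3 is at GRCh38 chr19:17848072-17848232 (161 bases, 6 CG) and STAT3 at chr17:42388541-42388692 (152 bases, 10 CG), both on the minus strand, from RefSeq on GRCh38.p14.
JAK3: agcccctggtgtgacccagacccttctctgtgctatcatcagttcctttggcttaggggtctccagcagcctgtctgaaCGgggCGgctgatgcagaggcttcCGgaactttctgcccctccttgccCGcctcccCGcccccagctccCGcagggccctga
STAT3: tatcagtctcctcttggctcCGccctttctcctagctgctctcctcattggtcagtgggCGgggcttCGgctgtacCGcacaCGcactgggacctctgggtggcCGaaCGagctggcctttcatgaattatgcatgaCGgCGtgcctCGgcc

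Windows of 250 bases before each RefSeq start (16 windows for the 9 members) were searched on both strands for TTC and GAA with 3 bases between them, TTC and GAA with 4 bases between them, and GAAA repeated after 2 bases, which 6.57%, 5.38% and 3.02% of 35114 windows of that length hold. A single match was found, TTC and GAA with 4 bases between. It lay in a window of STAT5A at GRCh38 chr17:42287189-42287438 (plus strand), 229 bases before the RefSeq start that this window precedes. That start lies upstream of the STAT5A start given above, chr17:42287547. The window directly before the latter, chr17:42287297-42287546, held no match. The matching window is shown with the match in capitals, and a match to these letters does not show that a factor binds there.
STAT5A: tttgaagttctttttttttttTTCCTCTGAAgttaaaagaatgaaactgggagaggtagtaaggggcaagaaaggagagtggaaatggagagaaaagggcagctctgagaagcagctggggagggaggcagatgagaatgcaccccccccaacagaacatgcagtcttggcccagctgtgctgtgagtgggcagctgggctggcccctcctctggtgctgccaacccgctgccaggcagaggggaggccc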

How the data were processed

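RNA of HK2 cells was measured in 12 libraries, 2 in each of 6 groups taken from the label of each library. The authors deposited, for every gene, the expected count estimated from stranded libraries with FastQC 0.11.5, STAR 2.6.1a and RSEM on GRCh38 and GENCODE release 26, without normalization. The RSEM version and strand setting are not given in the sources used here. RSEM divides reads that match several genes, so counts of close copies can be split between them.

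Expected counts were tested unrounded with limma 3.58.1 (voom, R 4.3.3) and TMM factors of edgeR 4.0.16, with all 12 libraries in a single fit and Benjamini-Hochberg adjustment over the 24342 genes that reached a geometric mean of 1 or more, taken after adding 1 and given after subtracting it (33936 genes removed). Calls needed an adjusted p under 0.05 and a change of more than 1.5-fold. Levels are CPM scaled with TMM factors, as mean ± SD. Confidence intervals come from limma-voom and rest on the spread between replicates, and the level of 3 counts covers counting error only. Libraries held 27269986 to 33851130 counts. Levels per kb use the merged exons of GENCODE release 44, which also gave positions. Alternatives were edgeR and DESeq2 1.42.0 on rounded counts, other scalings and filters, fits of fewer groups, the replicate number as a block, other thresholds and leaving out each library. The test was run on simulated data in which a small set of genes changed in PRTN alone, equally in both directions. These data had a single dispersion for all genes and groups. The simulation therefore does not check the scaling or the error rate under the broad changes and uneven replicate spread seen here. Libraries were not paired by number, since deviations of same-numbered libraries correlated from -0.03 to 0.07 over 15 pairs of groups, with 0 over 0.1.

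The members, the pathway and marker lists and the tests were chosen with earlier results of these data known. The text gives all 9 members, genes overlapping a member, and the 3 genes most like JAK3 and STAT3 over group means. Pathway genes are given as counts, with the largest and smallest average change of each list among genes called in all 4 SCFA groups. Receptor chains low in TN and higher in all 4 SCFA groups are also named. Promoter windows come from RefSeq on GRCh38.p14. Protein sequences were not used here.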

Additional observations from a re-analysis of the deposited data

Results flagged for a closer look

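Between SCFA groups, a test of the difference itself passed an adjusted p of 0.05 for 2 members, both under 1.5-fold. STAT6 was lower in PRTN than in BUTN by a log2 difference of -0.54 (adjusted p = 0.0334 by limma-voom), from 75.5 CPM on average in PRTN and 109.9 in BUTN. Over 20 alternatives the difference ran from -0.59 to -0.49 and its adjusted p from 1.95e-05 to 0.370, under 0.05 in 12 of them. STAT5A was lower in TNBU than in BUTN by a log2 difference of -0.56 (adjusted p = 0.0477 by limma-voom), from 5.95 CPM on average in TNBU and 8.79 in BUTN. Its difference ran from -0.59 to -0.52 and its adjusted p from 0.0235 to 0.352, under 0.05 in 6 of 20 alternatives. With the replicate block the adjusted p was 0.0556 by limma-voom for STAT5A and 0.0349 for STAT6.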

How the results depend on the processing

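The 738 values of the 9 members against TN cover the alternatives other than changed thresholds, which are given next. Of these values, 733 kept their direction and their side of the thresholds, and 0 changed direction. JAK1, JAK3, STAT3, STAT5A, STAT5B and STAT6 kept both in 82 of 82 each. With adjusted p alone, called members became 2 in TN vs Ctrl, 1 in PRTN vs BUTN, 1 in TNBU vs BUTN, and 4 higher in TNPR and in TNBU vs TN in place of 2. With a fold change over 2, 1 member was higher in PRTN and in TNPR vs TN, 0 in BUTN and in TNBU vs TN, and 3 in place of 7 differed in BUTN vs Ctrl. STAT5B, at 1.99-fold in PRTN, 1.67-fold in BUTN and 1.85-fold in TNBU vs TN, was then no longer called lower there. These follow from the threshold. With library size alone 4 members were higher in TNPR vs TN, and the share of calls that were higher over all genes moved from 58.9% to 44.3% in TN vs Ctrl, from 60.9% to 71.2% in BUTN, from 59.6% to 69.8% in TNPR and from 60.2% to 72.0% in TNBU vs TN. DESeq2 called 1 member in PRTN vs BUTN, and the cause was not tested. Leaving out each library in turn, where a lone replicate is assumed to vary like the other groups, gave 1 to 2 members higher in PRTN and in TNPR vs TN and 0 to 1 in TNPR vs PRTN.

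In TN vs Ctrl small values changed sign. STAT5B, at -0.010, was 1.23e-04 with relative log expression size factors, 7.87e-05 with DESeq2, 0.0052 with only the groups compared, 0.0035 with Ctrl, TN, PRTN and BUTN only (chosen after seeing the data), and -0.046 to 0.026 when each library was left out. JAK2 then ran from -0.17 to 0.12 and JAK3 from -0.12 to 0.014. The STAT5A and STAT5B sum was 0.10, and STAT5B on its own -0.010. With the longest transcript as length 2 members changed place in each of Ctrl, BUTN and TNPR, and with the canonical transcript (chosen after seeing the data) 2 in PRTN, 2 in BUTN and 4 in TNPR. The replicate block, which pairs libraries by number, left 5 members lower and 2 higher in each SCFA group vs TN and 0 in TN vs Ctrl, and changed no other count of called members, but STAT5A in TNBU vs BUTN then had an adjusted p of 0.0556 by limma-voom in place of 0.0477. JAK2 rests on 70 to 173 counts a library, which limits its precision.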
